A study of Mus musculus with 6 samples.

Results

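Ptprz1 encodes a receptor-type protein tyrosine phosphatase that is also a chondroitin sulfate proteoglycan, and it was described here with its ligands and binding partners in colon tumors of mice. The members were 6 genes, covered by 6 probe sets, of 19938 genes covered by 21789 probe sets with a single gene symbol on the array. They were Ptprz1, the ligand genes Ptn and Mdk, the matrix ligand gene Tnc and the cell-surface partner genes Cntn1 and Nrcam. The set was chosen by 2 steps: Ptprz1 and Tnc were selected on their difference between these tumors, and the other 4 were added as known partners. Earlier results of these data were known when the members were chosen. Each member had 1 probe set, so no other set of a member was left out.

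Gene expression was measured on Affymetrix Mouse Gene 1.0 ST arrays in tumors cut by laser from sections of the colon, with 1 array per tumor and 3 tumors per group. The first group carried CDX2P-G19Cre;Apcflox/flox;Tgfbr2flox/flox and is called double knockout, and the second carried CDX2P-G19Cre;Apcflox/flox and is called Apc knockout. All mice were 3 weeks old and of the C57BL/6J background. The comparison asked which transcripts differed when Tgfbr2, the type II receptor of TGF-β, was deleted in tumors that all lacked Apc. CDX2P-G19Cre places Cre under a CDX2 promoter that is active in the epithelium of the colon, and the G19 tract lets Cre be made only after a chance frameshift, so deletion occurs in scattered epithelial cells and not in the stroma. Only tumors were compared, and no sample of normal colon was included.

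Ptprz1 spans the membrane once, and its secreted form, phosphacan, consists of the outer part alone. Pleiotrophin and midkine, the products of Ptn and Mdk, bind its chondroitin sulfate chains and are known to reduce the phosphatase activity of the receptor, while tenascin-C, the product of Tnc, binds its outer part in the extracellular matrix. Contactin 1 and NrCAM are adhesion molecules best known from neurons and glia, the cells in which this receptor has mostly been studied.

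The windows just before the start sites are shown for Ptprz1, Ptn and Tnc, the 3 members with the lowest mean differences between the groups. They are RefSeq sequences of GRCm38.p6, each with 250 bases before the annotated start, 5′ to 3′ on the strand of the gene, and 5 of the 6 members were matched to such a window. Capitals mark matches on either strand to a TCF/LEF core (CTTTG or CAAAG), a SMAD box (CAGAC or GTCTG), a GC box (GGGCGG or CCGCCC) or a TATA box (TATAAA or TTTATA).
Ptprz1, chr6:22875252-22875501, plus strand: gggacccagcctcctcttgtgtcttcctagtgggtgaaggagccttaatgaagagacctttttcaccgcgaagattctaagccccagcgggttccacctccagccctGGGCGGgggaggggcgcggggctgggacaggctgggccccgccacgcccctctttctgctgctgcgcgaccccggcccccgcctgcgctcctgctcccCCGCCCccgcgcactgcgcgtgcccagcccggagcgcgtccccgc
Ptn, chr6:36810180-36810429, minus strand: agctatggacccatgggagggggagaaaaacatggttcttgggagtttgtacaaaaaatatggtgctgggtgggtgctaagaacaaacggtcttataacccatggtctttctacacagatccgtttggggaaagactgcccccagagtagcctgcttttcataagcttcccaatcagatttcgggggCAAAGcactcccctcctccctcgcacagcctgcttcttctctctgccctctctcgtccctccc
Tnc, first of its annotated starts, chr4:64047016-64047265, minus strand: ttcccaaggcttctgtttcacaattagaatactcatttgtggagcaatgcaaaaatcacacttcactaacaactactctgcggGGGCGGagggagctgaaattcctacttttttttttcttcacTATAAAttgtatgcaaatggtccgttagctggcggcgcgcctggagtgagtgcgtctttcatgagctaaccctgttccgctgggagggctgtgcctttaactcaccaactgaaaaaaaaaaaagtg

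The Ptprz1 window held 71.6% G or C and 22 CpG pairs, against a median of 52.4% G or C over 32851 such windows, and 2 GC boxes were its only matches. The Ptn window held 52% G or C and 1 TCF/LEF core, whose first base lay 63 bases before the start. In the Tnc window, with 44.8% G or C, a GC box began 167 bases and a TATA box 126 bases before the start. A second annotated start of Tnc lies close by, and its overlapping window held the same GC box and TATA box, 246 and 205 bases before that start, with a SMAD box at 70 bases and a TCF/LEF core at 16 bases. A TCF/LEF core was found in 48.6%, a SMAD box in 42.2%, a GC box in 32.7% and a TATA box in 12.4% of all windows of this length. The matches describe letters only, and no occupancy was measured.

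Double knockout tumor 2 stood apart from the other arrays. Its correlation with the others was 0.956 to 0.968 over all probe sets, against 0.980 to 0.988 among the other 5 tumors. Wnt target and crypt genes had a mean log2 signal of 8.86 in this tumor and 10.88 to 11.28 in the others, genes of differentiated colonocytes 12.03 against 9.46 to 10.61, and smooth muscle genes 10.25 against 8.02 to 8.63. Every member is therefore given below with and without this tumor. Array medians lay between 7.68 and 7.80. Epcam, an epithelial adhesion molecule, had log2 signals of 12.33 to 12.67 in the 6 tumors, and the 10 epithelial marker genes had mean log2 signals of 11.69 to 12.10. Single markers varied more than this mean. Cdx2 was at 8.24 in double knockout tumor 2 and 10.08 to 11.18 in the others, and Krt20 ranged from 10.11 to 12.15. Of the 10, 1 was lower without overlap (Krt18, log2 difference −0.41) and 1 higher (Epcam, 0.13), against 6.94% and 5.25% of all sets. Tgfbr2 had a log2 difference of −0.67, which does not check the genotype, because whether its probes fall in the deleted part of the gene is unknown. Over 19506 probe sets tested with limma, 0 (0%) had an adjusted p under 0.05, while 1092 had an unadjusted p under 0.05 with limma and 998 with the methods' t-test, which also gave 0 adjusted calls. The median log2 difference over these sets was 0.01, and 47.7% of them had a lower mean in double knockout tumors. In dissected tumor tissue, fewer cells of a type and less RNA per cell cannot be told apart.

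Ptprz1 had the lowest mean difference of the members. In tumors 1, 2 and 3 of the double knockout group its log2 signals were 7.83, 7.73 and 9.20. In tumors 1, 2 and 3 of the Apc knockout group they were 10.14, 9.56 and 10.70. All double knockout tumors lay below all Apc knockout tumors, the nearest being double knockout tumor 3, which was 0.37 on the log2 scale below Apc knockout tumor 2. The group means were 8.25 ± 0.82 (SD, n = 3) and 10.13 ± 0.57 (SD, n = 3), a log2 difference of −1.88 (standard error 0.47, 95% confidence interval −3.03 to −0.74). This corresponds to a 3.69-fold lower signal in double knockout tumors (95% confidence interval 1.67 to 8.16). Without double knockout tumor 2 the log2 difference was −1.62 and the groups still did not overlap. As Ptprz1 was selected on this difference, its values are a description and no p is given.

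**Figure D1:**
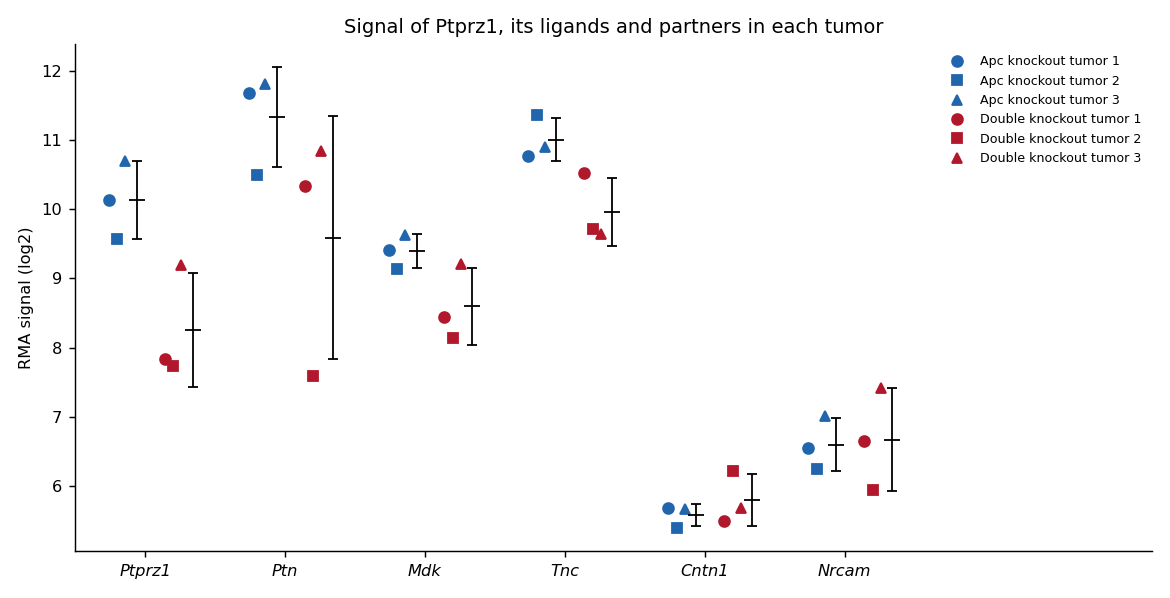
The log2 RMA signal of each member is plotted for each tumor, with Apc knockout tumors in blue and double knockout tumors in red, and bars show the mean and SD of each group (n = 3). Signals of different genes come from different probes and are not to be compared. Ptprz1 and Tnc did not overlap between groups, Ptn and Mdk overlapped, and Ptn in double knockout tumor 2, at 7.59, lay far below the other tumors.

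Ptn, which encodes the heparin-binding growth factor pleiotrophin, had log2 signals of 10.33, 7.59 and 10.85 in double knockout tumors 1, 2 and 3. In Apc knockout tumors 1, 2 and 3 the Ptn log2 signals were 11.68, 10.49 and 11.81. The groups overlapped, since double knockout tumor 3 was above Apc knockout tumor 2, and the signal in double knockout tumor 2 was the lowest by far. The means were 9.59 ± 1.75 (SD, n = 3) and 11.33 ± 0.73 (SD, n = 3), a log2 difference of −1.74 (standard error 0.89, 95% confidence interval −3.89 to 0.41). The difference did not pass the test (adjusted p = 0.821 from limma over all sets). It shrank to −0.74 when double knockout tumor 2 was left out and was −2.37 when double knockout tumor 3 was left out, so the size of the Ptn difference rested largely on single tumors.

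Mdk, which encodes midkine, the only close relative of pleiotrophin, had log2 signals of 8.44, 8.14 and 9.21 in double knockout tumors 1, 2 and 3. In Apc knockout tumors 1, 2 and 3 the Mdk log2 signals were 9.41, 9.13 and 9.63. The groups overlapped by a single pair, double knockout tumor 3 lying above Apc knockout tumor 2. The means were 8.60 ± 0.55 (SD, n = 3) and 9.39 ± 0.25 (SD, n = 3), a log2 difference of −0.80 (standard error 0.30, 95% confidence interval −1.51 to −0.08), or a 1.74-fold lower signal. The interval did not include 0 and the unadjusted limma p was 0.0348, where 3.82% of all sets tested were lower and 1.78% higher in double knockout tumors at an unadjusted p under 0.05, but the difference did not pass the adjusted test (adjusted p = 0.821 from limma). Mdk was added as a partner with earlier results of these data known, so its unadjusted p and interval are a description. Without double knockout tumor 2 the Mdk log2 difference was −0.57.

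Tnc, which encodes the matrix glycoprotein tenascin-C, had log2 signals of 10.52, 9.72 and 9.63 in double knockout tumors 1, 2 and 3. In Apc knockout tumors 1, 2 and 3 the Tnc log2 signals were 10.77, 11.36 and 10.89. The groups did not overlap, although double knockout tumor 1 was within 0.25 of Apc knockout tumor 1 on the log2 scale. The means were 9.96 ± 0.49 (SD, n = 3) and 11.01 ± 0.31 (SD, n = 3), a log2 difference of −1.05 (standard error 0.28, 95% confidence interval −1.74 to −0.36) and a 2.07-fold lower signal (95% confidence interval 1.28 to 3.34). Without double knockout tumor 2 the Tnc log2 difference was −0.93. Tnc was also selected on this difference, and no p is given.

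Of the 6 members, 2 (Ptprz1 and Tnc) were lower in double knockout tumors without overlap, where 6.94% of all sets tested were. As both were selected on this contrast, nothing is read from that count.

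Nrcam, which encodes an L1-type adhesion molecule, had log2 signals of 6.65, 5.94 and 7.42 in double knockout tumors 1, 2 and 3. In Apc knockout tumors 1, 2 and 3 the Nrcam log2 signals were 6.54, 6.24 and 7.01. The groups lay within each other, both with tumor 2 lowest and tumor 3 highest. The log2 difference of means was 0.07 (standard error 0.40, 95% confidence interval −0.90 to 1.04, adjusted p = 0.976 from limma), so changes of up to nearly the size of the Tnc difference in either direction stayed within the interval. The sign of the Nrcam difference depended on the tumors used, being 0.44 when double knockout tumor 2 was left out, −0.30 when double knockout tumor 3 was left out and −0.11 when Apc knockout tumor 2 was left out.

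Cntn1, which encodes the GPI-anchored adhesion molecule contactin 1, had log2 signals of 5.49, 6.21 and 5.68 in double knockout tumors 1, 2 and 3. In Apc knockout tumors 1, 2 and 3 the Cntn1 log2 signals were 5.67, 5.39 and 5.66. Its mean was under the level set for the test (5.88), and 5 of the 6 members therefore passed the filter on low values. The groups overlapped, and the log2 difference of means was 0.22, falling to 0.01 without double knockout tumor 2. The files give no detection call, so whether Cntn1 RNA was present at these signals cannot be read from them.

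**Figure D2:**
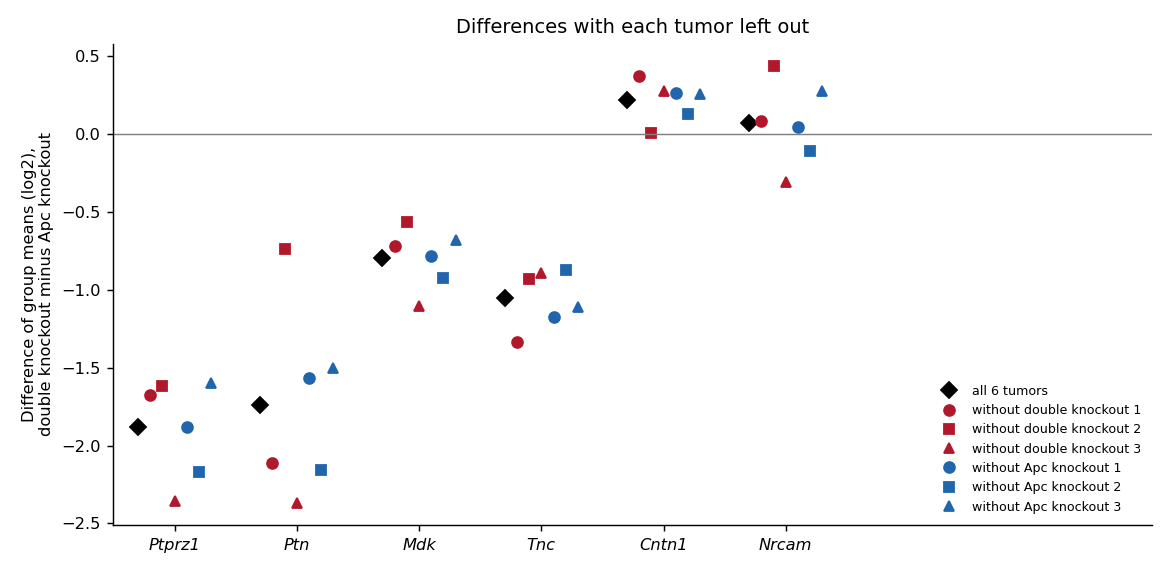
The log2 difference between group means (double knockout minus Apc knockout) is plotted for each member over all 6 tumors (black diamonds) and with each tumor left out in turn (red, a double knockout tumor left out; blue, an Apc knockout tumor left out). Ptprz1 stayed between −2.35 and −1.60 and Tnc between −1.33 and −0.87, whereas Ptn reached −0.74 without double knockout tumor 2 and Nrcam lay on both sides of 0.

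The members also varied within groups. Ptprz1, Ptn, Mdk and Nrcam each had their lowest signal in tumor 2 and their highest in tumor 3 of either group. The labels do not say whether tumors of the same number belong together. Tnc did not share this pattern, since its highest Apc knockout signal was in tumor 2 and its lowest double knockout signal in tumor 3.

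The similarity to Ptprz1 over the 6 tumors was described by the Pearson correlation among 2248 probe sets with an SD of at least 0.5, without a test, since all genes share the same 6 arrays and both groups. Mdk was the third most alike of them (r = 0.973, Spearman's rank correlation 0.943). Its correlation with Ptprz1 was 0.966 on deviations from the group means and 0.978 when double knockout tumor 2 was left out. It was 0.930 when double knockout tumors 1 and 2, the tumors farthest from the median of Ptprz1, were both left out. Ptn had r = 0.819 (rank correlation 0.943), and 0.707 on deviations from the group means. For Nrcam r was 0.416 (rank correlation 0.371) over all tumors, 0.921 on deviations from the group means, and −0.14 over the tumors that remained when double knockout tumors 1 and 2 were left out. Tnc had r = 0.553 (rank correlation 0.657) but −0.59 on deviations from the group means, so it was lower with Ptprz1 between groups and did not follow it among tumors of a group. Cntn1, whose SD was too low to be ranked, had r = −0.39 (rank correlation −0.37).

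**Figure D3:**
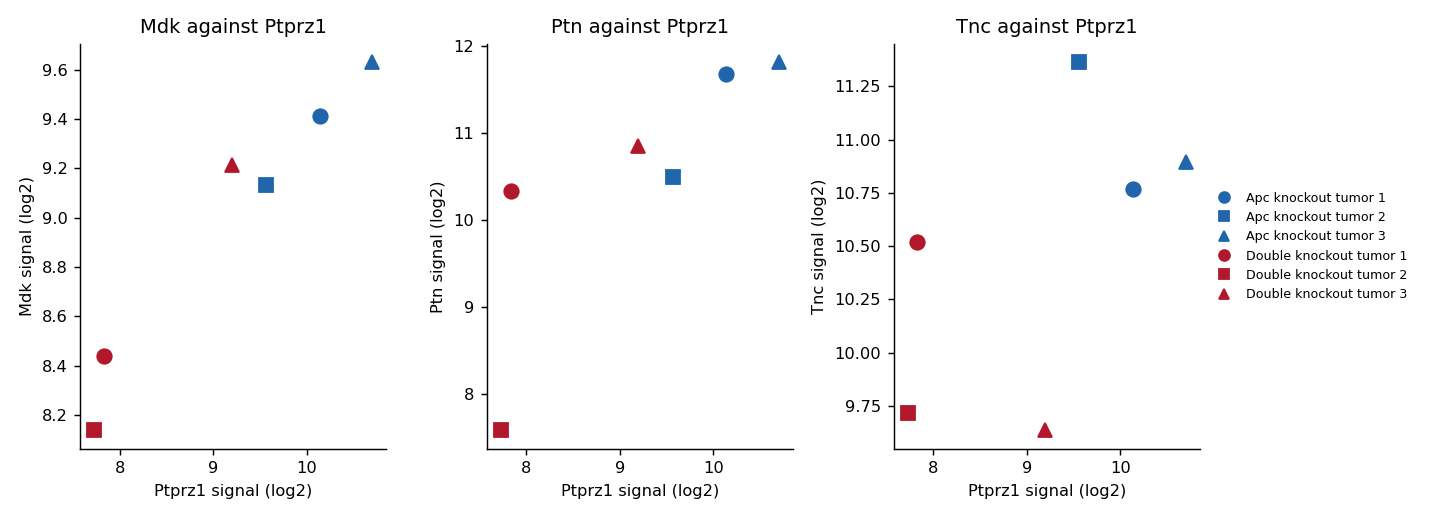
The log2 signals of Mdk, Ptn and Tnc (vertical axes, each with its own scale) are plotted against that of Ptprz1 (horizontal axes) in the 6 tumors. Mdk followed Ptprz1 tumor by tumor (r = 0.973), Ptn kept nearly the same order of tumors (rank correlation 0.943), and Tnc split by group.

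Apart from Mdk, the sets most alike to Ptprz1 were those of Gbx2, a homeobox transcription factor (r = 0.986), Spaca6, a membrane protein of sperm (0.985), Inhba, the βA subunit of activins (0.971), and Spred3, an inhibitor of Ras signaling (0.968). Inhba had log2 signals of 9.09, 8.65 and 9.77 in the double knockout group and 9.97, 9.84 and 10.48 in the Apc knockout group, with a log2 difference of −0.93 (standard error 0.32, adjusted p = 0.821 from limma). The sets most opposite to Ptprz1 were those of Camk1d, a calcium/calmodulin-dependent kinase (r = −0.98), Ms4a10, a membrane-spanning protein (−0.98), Man1a, a Golgi mannosidase (−0.98), Lum, the matrix proteoglycan lumican (−0.96), and Fbp2, a fructose bisphosphatase (−0.95). Lum had log2 signals of 8.16, 8.28 and 7.93 in the double knockout group and 6.94, 7.36 and 6.82 in the Apc knockout group. All its double knockout tumors were above all Apc knockout tumors. The rank correlations of Inhba and Lum with Ptprz1 were 1 and −1, so their groups had to separate as those of Ptprz1 did. As Ptprz1 was selected on its difference, nothing is read from those of Inhba and Lum.

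The other genes of the pathway were taken from lists of known partners. Of 9 tested genes for other proteins that bind the outer part of the receptor, 4 were lower and 5 higher in double knockout tumors, 0 passed the adjusted test, and 0 were lower without overlap (6.94% of all sets). Their median log2 difference was 0.14, against 0.01 over all sets, and it turned to −0.03 without double knockout tumor 2, with 6 of the 9 genes lower. Nfasc, the L1-type molecule neurofascin, had log2 signals of 8.38, 6.99 and 8.16 in the double knockout group and 8.66, 9.02 and 8.31 in the Apc knockout group, a log2 difference of −0.82 that was −0.39 without double knockout tumor 2. Il34, a cytokine that also binds Ptprz1, had log2 signals of 8.10, 8.84 and 7.65 in the double knockout group and 7.85, 7.82 and 8.04 in the Apc knockout group, so its groups overlapped (log2 difference 0.30, standard error 0.30, and −0.03 without double knockout tumor 2). L1cam (log2 difference 0.54) and Ncam1 (0.51), neural adhesion molecules, had their highest signals in double knockout tumor 2, and without it their log2 differences were −0.05 and 0.09. In the wider family of contactins and L1-type molecules 5 of 9 tested genes were lower and 4 higher (median −0.02), 0 passed the test, and Cntn3 and Cntn5 had log2 differences of −1.28 and −0.65 with overlapping groups.

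Among 15 other receptors of pleiotrophin and midkine, 8 were lower and 7 higher in double knockout tumors and 0 passed the adjusted test. The median log2 difference of these receptors was −0.09. Lower without overlap were 3, against 6.94% of all sets, and they were both chains of an integrin and a syndecan. Itgb3, the integrin β3 chain, had log2 signals of 9.23, 8.97 and 8.99 in the double knockout group and 9.64, 9.53 and 9.82 in the Apc knockout group. Its log2 difference was −0.60 (standard error 0.13, 95% confidence interval −0.91 to −0.29), the adjusted p was 0.821 from limma, and the difference was −0.55 without double knockout tumor 2. Sdc1, the epithelial heparan sulfate proteoglycan syndecan 1, had log2 signals of 11.37, 11.07 and 11.45 against 11.70, 11.69 and 11.70 (log2 difference −0.40). Itgav, the αv chain that pairs with β3, had log2 signals of 10.94, 10.73 and 11.13 against 11.15, 11.15 and 11.28 (log2 difference −0.26). Itga4, an α chain described as a midkine receptor, had a log2 difference of 0.29 with overlapping groups. Alk, a receptor tyrosine kinase studied as a pleiotrophin receptor and named here after its values were seen, had log2 signals of 6.47 to 6.78 in all tumors and a log2 difference of 0.07.

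Of 16 other tenascins and receptors of tenascin-C, 9 were lower and 7 higher (median −0.04), and 0 passed the adjusted test. Lower without overlap were 4, against 6.94% of all sets. They were the integrin chains Itgb3 and Itgav, which both lists hold, Itga9 (log2 difference −0.41, standard error 0.14) and Itga5 (−0.38, standard error 0.14). The other integrin chains of the list had overlapping groups. Of those, Itga2 (−0.31) and Itgb1 (−0.09) were lower, and Itga8 (0.21), Itgb6 (0.07) and Itga7 (0.03) were higher. Itga9 had log2 signals of 9.51, 9.12 and 9.23 in the double knockout group and 9.54, 9.77 and 9.79 in the Apc knockout group, and Itga5 9.84, 10.10 and 9.96 against 10.12, 10.51 and 10.42. Without double knockout tumor 2 the number lower without overlap was 7, where the share over all sets was 10.7%. The differences of these integrin chains were smaller than those of Ptprz1 and Tnc, a contrast that was not tested. As Ptprz1 and Tnc were selected on their difference, nothing is read from this order.

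**Figure D4:**
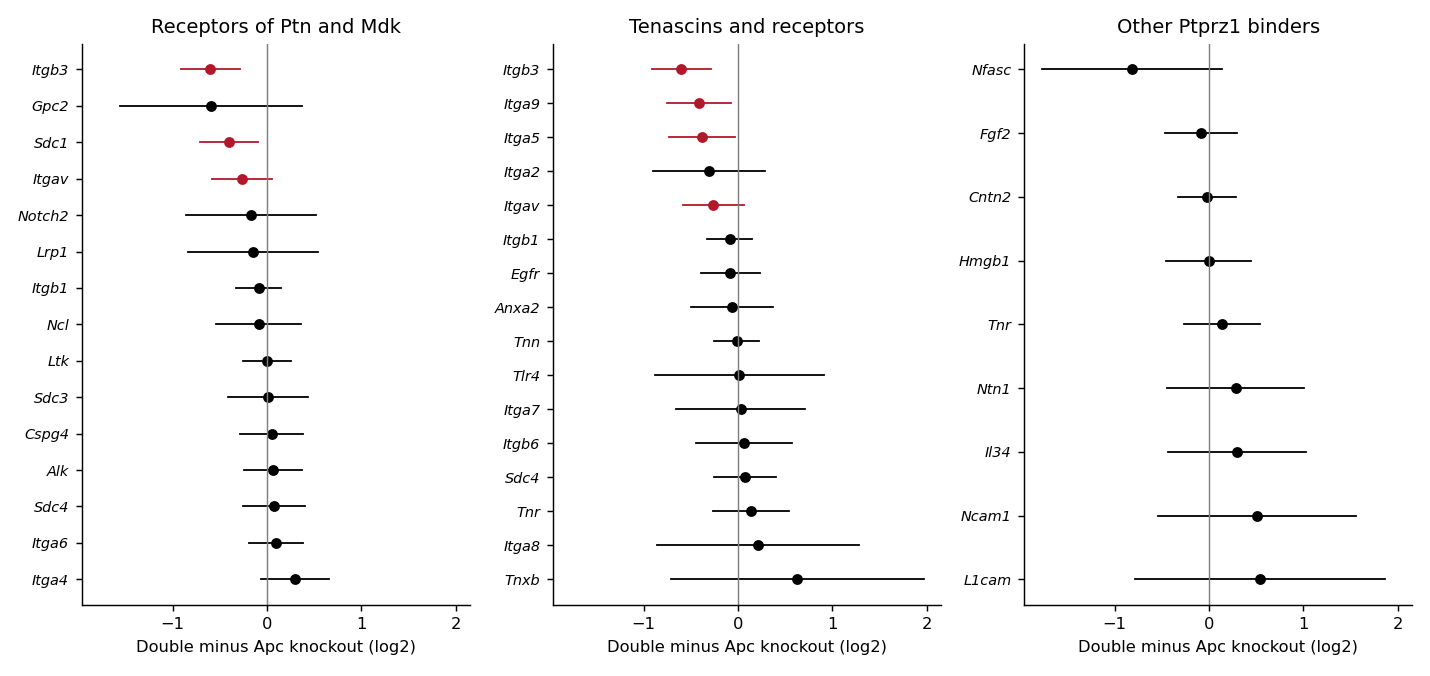
Points show the log2 difference (double knockout minus Apc knockout) of each tested gene in 3 lists, other receptors of pleiotrophin and midkine, other tenascins and receptors of tenascin-C, and other binders of Ptprz1, and bars show 95% confidence intervals from limma. Red marks genes whose 3 double knockout tumors all lay below the 3 Apc knockout tumors, which were Itgb3, Sdc1 and Itgav in the first list and Itgb3, Itga9, Itga5 and Itgav in the second.

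Inside the cell, 6 of 10 substrates and scaffold partners of the phosphatase were lower and 4 higher (median log2 difference −0.13), and 0 passed the adjusted test or were lower without overlap. Ctnnb1, which encodes β-catenin, a substrate of Ptprz1 and the protein that accumulates when Apc is lost, had log2 signals of 12.99, 12.75 and 13.07 in the double knockout group and 13.17, 13.00 and 13.31 in the Apc knockout group. Its log2 difference was −0.22 with overlapping groups (adjusted p = 0.824 from limma). Magi3, a scaffold bound by the tail of the receptor, had a log2 difference of 0.33, and Dlg4, the scaffold PSD-95, and Arhgap35, a GTPase-activating protein, had −0.26 and −0.17. Without double knockout tumor 2 the latter 2 were lower without overlap, as were 10.7% of all sets.

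Of 19 other receptor-type phosphatases 12 were lower and 7 higher (median −0.09), 0 passed the adjusted test and 3 were lower without overlap (6.94% of all sets), a number that was 5 without double knockout tumor 2 (10.7% of all sets). Ptprg, the closest relative of Ptprz1, had log2 signals of 10.80, 9.62 and 10.96 in the double knockout group and 10.59, 10.53 and 10.21 in the Apc knockout group. Its log2 difference was 0.01 (95% confidence interval −0.87 to 0.90), and without double knockout tumor 2 it was 0.44. Both remaining double knockout tumors then lay above all Apc knockout tumors, as they did in 9.49% of all sets. The 3 lower without overlap were Ptpre (log2 difference −0.96, and −0.58 without double knockout tumor 2), Ptprs, a receptor for chondroitin sulfate chains (−0.78, and −0.34 without that tumor), and Ptprj (−0.32). Their nearest tumors of opposite groups lay 0.40 apart for Ptpre, but only 0.01 for Ptprs and 0.05 for Ptprj, on the log2 scale. Ptprj had 2 probe sets, and only the set with the higher mean is given. Ptpro had a log2 difference of −1.11 with overlapping groups, and −0.59 without double knockout tumor 2.

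The enzymes that build and sulfate chondroitin sulfate, the sugar chain to which pleiotrophin and midkine bind, were represented by 21 tested genes. Of these 15 were lower and 6 higher, the median log2 difference was −0.15 and 0 passed the adjusted test. Xylt2, which starts the chain, had log2 signals of 8.82, 8.62 and 8.76 in the double knockout group and 9.02, 9.03 and 9.08 in the Apc knockout group (log2 difference −0.31). Xylt1, which catalyzes the same step, ran the other way, with 8.86, 8.79 and 8.54 against 8.47, 8.51 and 8.42 (log2 difference 0.26). Also without overlap were B3gat3 and Chsy1, which were lower, and Chst13, which was higher, all named after their values were seen. With Xylt2 and Xylt1 these made 3 of 21 lower and 2 of 21 higher without overlap, against 6.94% and 5.25% of all sets. The log2 difference of Chsy1 was −0.33, and −0.07 without double knockout tumor 2. Chst11, a chondroitin 4-sulfotransferase, had a log2 difference of −1.06 that was −0.41 without double knockout tumor 2. The 8 other chondroitin sulfate proteoglycans were split evenly, 4 being lower and 4 higher (median −0.01).

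Markers of the cells that could carry these transcripts were set beside the members. Of 6 tested genes of enteric glia and Schwann cells, cells known for Ptprz1 in the nervous system, 6 were higher in double knockout tumors (median log2 difference 0.20), with mean log2 signals of the measured list of 7.07 to 7.48 against 6.94 to 6.97. Higher without overlap were 3 of the 6 (5.25% of all sets), Fabp7 (log2 difference 0.62), Erbb3 (0.34) and Gfap (0.24). Sox10 and S100b each had a log2 difference of 0.15 with overlapping groups. The signal of Erbb3 exceeded 89.7% to 94.2% of all sets and that of Gfap 23.7% to 30.5%, and whether Erbb3 came from glia was not tested. The genes also differed by tumor. In double knockout tumor 3 Fabp7 was highest, at 7.99, while S100b, at 6.28, was below all Apc knockout tumors. Of 6 tested genes of enteric neurons 4 were lower (median −0.05), and the mean log2 signals of the list were 6.77 to 7.03 against 7.01 to 7.14. Of 8 fibroblast genes 6 were lower (median −0.27), with mean log2 signals of 9.94 to 10.61 against 10.21 to 10.81. The lowest value was in double knockout tumor 3, in which Tnc was also lowest, at 9.63. In Apc knockout tumor 2 the fibroblast mean was the lowest of its group, at 10.21, while Tnc was the highest of all 6 tumors, at 11.36. The fibroblast median was −0.04 without double knockout tumor 3 and −0.02 when Apc knockout tumor 3 was left out. Dcn, the matrix proteoglycan decorin, had log2 signals of 12.13, 12.34 and 10.00 in the double knockout group and 12.22, 11.92 and 12.04 in the Apc knockout group.

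Of 15 tested Wnt target and crypt genes 14 were lower, with a median log2 difference of −1.04 that was −0.41 without double knockout tumor 2. Smooth muscle genes were higher in 9 of 9 cases (median 0.57), but this median was −0.22 without double knockout tumor 2. Colonocyte genes were higher in 11 of 12 cases (median 0.43, and 0.06 without that tumor). Neutrophil genes were lower in 8 of 8 cases (median −1.28, and −1.94 without that tumor), with mean log2 signals of 7.66 to 9.07 against 9.08 to 9.88. Lower without overlap was 1 of the 8, Retnlg (6.94% of all sets), and 6 were without double knockout tumor 2 (10.7%). Csf3r had a log2 difference of −0.02. Ly6g was highest in double knockout tumor 2, at 13.15, and Mmp9 in double knockout tumor 3, at 11.52. The medians were −0.08 over 7 macrophage genes, 0.01 over 7 endothelial genes and 0.10 over 10 epithelial genes, and no gene of these lists passed the adjusted test. In double knockout tumors 1, 2 and 3 the log2 signals of Ptprz1 were 7.83, 7.73 and 9.20, and the means of the Wnt and crypt list 10.88, 8.86 and 10.91. In Apc knockout tumors 1, 2 and 3 Ptprz1 was at 10.14, 9.56 and 10.70, and the list at 11.28, 11.17 and 11.07. The array gives no true zero, so no marker could be called absent. The part of other cell types in the differences of the members was not tested.

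**Figure D5:**
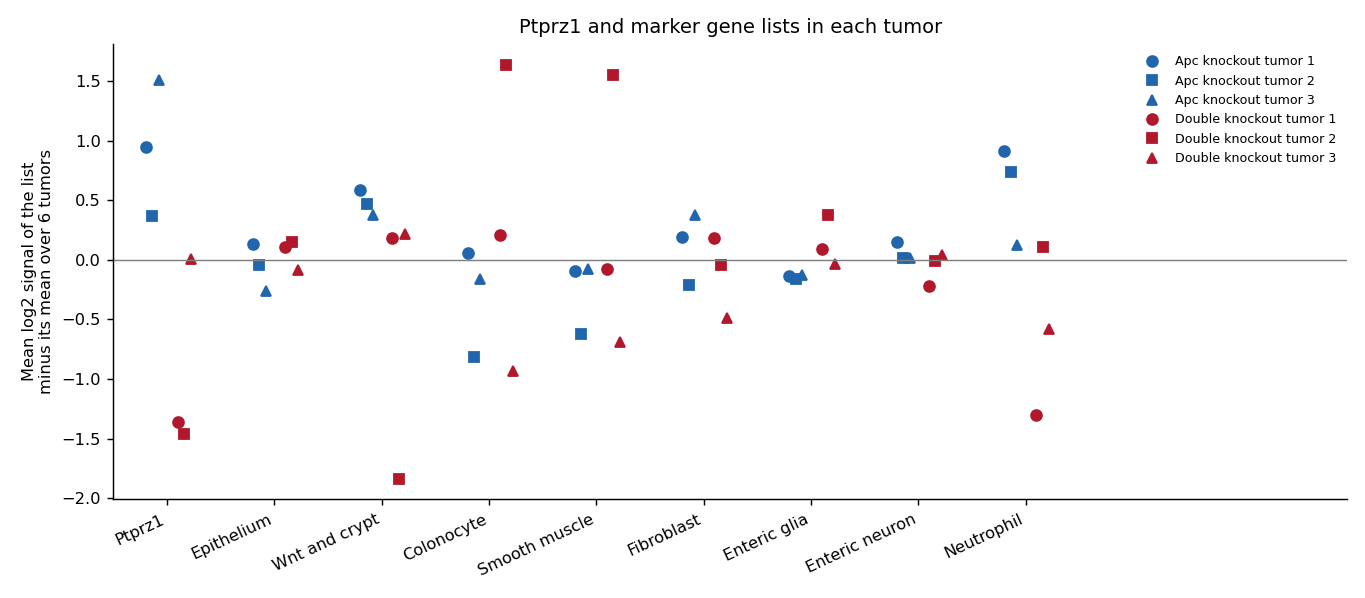
For each tumor the log2 signal of Ptprz1 and the mean log2 signal of each marker list are plotted as the deviation from the mean over the 6 tumors. Double knockout tumor 2 was far from the others in the Wnt and crypt, colonocyte and smooth muscle lists. Ptprz1 was at 7.83, 7.73 and 9.20 in double knockout tumors 1, 2 and 3.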

How the data were processed

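RNA from 3 double knockout and 3 Apc knockout laser-dissected colon tumors was measured with 1 array per tumor. The labels number the replicates 1 to 3 in each group. The paper gives 3 mouse tumors per group and does not say whether each came from a different mouse. GeneSpring GX was used by the authors for RMA, so the deposited values are log2 signals that were background-corrected, quantile-normalized and summarized per probe set. The version of RMA is not given in the sources used here. RMA pulls low signals together, so differences of dim sets can be understated. Of 35556 probe sets, 21789 had 1 gene symbol, 1621 several and 12146 none in the platform annotation, and 0 other columns of values per tumor were left out.

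Named sets whose mean reached the 20th percentile (5.88) entered the test, which was run with limma 3.58.1 in R 4.3.3 (lmFit and eBayes, two-sided, Benjamini-Hochberg over 19506 sets, threshold 0.05). Each gene was represented by its set with the highest mean. The fit was tested on simulated data. The members and the 18 gene lists were chosen with earlier results of these data known. Named genes are the members, Ptprg, Tgfbr2, Apc, the 5 sets most and the 5 least correlated with Ptprz1, the 4 genes of each list with the smallest limma p, and cell markers. Alternatives were the methods' t-test, other filters, median centring, a further quantile normalization, sex as a covariate and a replicate block. Trend with robust eBayes was also used, and each tumor was left out in turn. The mean of all sets of a gene was not fitted separately, as each member had 1 set. The counts of list genes without overlap in the absence of double knockout tumor 2 were added after seeing the data. The number of arrays limits the precision.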

Additional observations from a re-analysis of the deposited data

How the results depend on the processing

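The log2 differences of Ptprz1, Ptn, Mdk, Tnc and Cntn1 kept their direction under all alternatives run. With each tumor left out in turn they ranged from −2.35 to −1.60 for Ptprz1, −2.37 to −0.74 for Ptn, −1.10 to −0.57 for Mdk, −1.33 to −0.87 for Tnc and 0.01 to 0.37 for Cntn1. The Nrcam log2 difference changed sign and ranged from −0.30 (without double knockout tumor 3) to 0.44 (without double knockout tumor 2), with −0.11 without Apc knockout tumor 2, and the cause was not tested. The number of members whose groups did not overlap ranged from 2 to 4 over these fits. It was 4 (Ptprz1, Ptn, Mdk and Tnc) when either double knockout tumor 3 or Apc knockout tumor 2 was left out, and these fits hold fewer samples. Over all sets the share lower without overlap was 13.8% and 14.3% in these fits, against 6.94% with all tumors. With sex, which no label gives and which was inferred from Y-linked genes, as a covariate (2 double knockout tumors and 1 Apc knockout tumor read as male) the log2 differences were −1.79 for Ptprz1, −1.55 for Ptn, −0.70 for Mdk and −1.10 for Tnc. A further quantile normalization and median centring moved each of the 6 differences by less than the spread between replicates.

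No probe set passed the adjusted threshold under any setting, and the number with an unadjusted p under 0.05 ranged from 677 to 1716 when a tumor was left out. The labels do not say whether the replicate numbers pair the tumors. Deviations of same-numbered tumors correlated at −0.20 to 0.09, and 1 tumor correlated best with its own number. With 3 tumors per group, these values cannot settle whether same-numbered tumors shared a litter or batch. With the replicate number as a replicate block the log2 difference of Ptprz1 was the same −1.88, 0 sets were called and 1350 had an unadjusted p under 0.05. The 40th percentile filter left Nrcam and Cntn1 untested. Each member had 1 probe set, so a mean over all sets of a gene would equal the values given. Of 144 list medians under an alternative, 139 stayed within 1 SD of the value reported and 5 moved, 4 of them for enteric glia and 1 for macrophages. The median changed sign with a tumor left out in 8 of the 18 lists: other binders of Ptprz1, contactins and L1-type molecules, tenascins and their receptors, chondroitin sulfate proteoglycans, and the markers of endothelium, neurons, macrophages and smooth muscle. With arrays centred on their median it changed sign in 2, the contactins and the proteoglycans, while the median of all sets moved from 0.01 to 0.04.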
